A study of Mus musculus with 21 samples.

Results

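Conjugating enzymes of the glutathione S-transferase (Gst), UDP-glucuronosyltransferase (Ugt) and sulfotransferase (Sult) families were followed in the colon of germ-free (GF) mice. A gene was included when its name in the array annotation began with Gst and the letter of a cytosolic or kappa class, with Ugt and a family number, or with Sult and a family number, and it was read by its brightest probe. This gave 51 of 24943 named genes on the array design used at day 7 and 53 of 29843 on the design used at day 0. The 51 genes were on both designs, and Sult2a5 and Sult2a8 were on the second only. By family there were 20 Gst and 14 Ugt genes at both days, with 17 Sult genes at day 7 and 19 at day 0. No difference between genotypes was used to choose them.

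Gene expression was measured on single-color Agilent arrays in RNA of total colon tissue from male mice on the C57BL/6J background that were raised germ-free, either lacking Card9 (GF Card9-/-) or wild type (GF WT). Card9 encodes an adaptor protein of myeloid cells that transmits signals from receptors for microbial products. At day 0, before colitis was induced, there were 7 arrays labelled GF Card9-/- and 6 labelled GF WT, and at day 7 of 2% dextran sulfate sodium (DSS) in the drinking water there were 4 of each. No mouse carried a microbiota, so neither group stands for a conventionally raised animal, and the age of the mice on the arrays was not given in the sources used here. The labels number the samples without saying which came from separate animals, and p-values measure only the spread between the arrays. GF Card9-/- replicates 2 and 2.1 at day 7 may be 1 mouse measured again, and that group may then hold 3 animals. With both averaged as 1 sample, 0 members passed the adjusted test and the lowest limma adjusted p was 0.954. The days were measured on different designs, so day 7 was not set against day 0 within a genotype: day and design cannot be told apart. Arrays of either label were compared within each day.

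Card9 itself went against the labels. At day 0 its probe was well above background on 7 of 7 arrays labelled GF Card9-/- and on 0 of 6 labelled GF WT, at least 21.5-fold higher in the former (limma adjusted p = 2.92e-13). At day 7 it was well above background on 4 of 4 and 1 of 4 arrays, GF WT replicate 1 being the bright one. The mean log2 signal at day 0 was 8.90 and 2.32. Where the probe lies relative to the deleted stretch was not given in the sources used here, and an exchange of the labels was not tested. Arrays are therefore called by their labels throughout, and each direction rests on those labels. Each difference would turn its sign if all labels of a day were exchanged. At day 7 GF WT replicate 1 would then still be unlike the rest of its group in Card9. If only single arrays were exchanged, the sizes of the differences would change too. Between 42.2% and 57.1% of spots per array were well above background at day 7, and between 54.5% and 64.9% at day 0. Pancreatic enzyme genes were high in GF Card9-/- replicates 2.1 and 6 at day 7 and in GF Card9-/- replicate 7 at day 0. The colonocyte markers Car1, Slc26a3, Aqp8, Krt20 and others were well above background, 7 of 7 in all but GF WT replicate 1 at day 7, where 6 were. Sums and scores below are on the log2 scale after quantile normalization, and in tissue RNA fewer cells of a type and less RNA per cell cannot be told apart.

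Conjugation makes lipophilic compounds soluble enough to leave the body. Glutathione S-transferases join reactive electrophiles to glutathione, glucuronosyltransferases of the endoplasmic reticulum transfer glucuronic acid to bilirubin, steroids, bile acids and drugs, and cytosolic sulfotransferases add sulfate to phenols, steroids and amines. The intestinal epithelium is a major site of this metabolism. Electrophiles induce several of these genes through the transcription factor NRF2 and its antioxidant response element, and aryl hydrocarbons induce others through the aryl hydrocarbon receptor and its xenobiotic response element.

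The values reported below turn on a pair of gene clusters, so their promoters are shown first. Of the members, 45 genes had a promoter in the RefSeq table for GRCm38.p6, and the 250 bases before the annotated start are given 5′ to 3′ on the strand of the gene. Ugt2b5 (chr5:87140341-87140590), Ugt2b36 (chr5:87092556-87092805), Ugt2b37 (chr5:87254789-87255038) and Ugt2b38 (chr5:87424204-87424453) lie on the minus strand within 0.332 Mb, and are shown because their signals moved together from array to array. Capitals mark the longest run of letters shared by all of them.
Ugt2b5: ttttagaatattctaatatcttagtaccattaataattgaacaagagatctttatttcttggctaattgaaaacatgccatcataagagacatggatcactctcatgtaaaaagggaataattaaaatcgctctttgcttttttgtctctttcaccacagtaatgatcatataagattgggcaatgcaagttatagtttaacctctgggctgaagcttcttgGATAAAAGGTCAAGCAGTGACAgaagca
Ugt2b36: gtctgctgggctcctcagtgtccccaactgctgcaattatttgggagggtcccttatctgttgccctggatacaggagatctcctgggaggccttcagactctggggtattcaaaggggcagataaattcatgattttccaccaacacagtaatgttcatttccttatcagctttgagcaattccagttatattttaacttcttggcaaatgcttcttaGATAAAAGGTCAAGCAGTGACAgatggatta
Ugt2b37: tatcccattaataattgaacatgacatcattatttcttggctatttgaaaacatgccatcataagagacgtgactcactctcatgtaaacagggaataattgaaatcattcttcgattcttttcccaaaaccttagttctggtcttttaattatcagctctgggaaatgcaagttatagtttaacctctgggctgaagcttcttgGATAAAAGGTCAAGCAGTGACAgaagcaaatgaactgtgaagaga
Ugt2b38: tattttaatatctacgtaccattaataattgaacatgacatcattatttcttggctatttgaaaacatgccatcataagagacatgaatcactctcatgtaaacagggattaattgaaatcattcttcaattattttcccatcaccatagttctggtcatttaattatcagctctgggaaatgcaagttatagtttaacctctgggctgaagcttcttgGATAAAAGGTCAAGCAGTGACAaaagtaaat
The shared run is 22 bases long and ended 7 bases before the start in Ugt2b5, 10 before it in Ugt2b36 and Ugt2b38, and 24 before it in Ugt2b37. It was looked for after the signals had been seen, and of 32851 promoters of the same length it was held by these 4 only (0.0122%, either strand). In pairwise alignments these windows were identical at 57.6% to 84.8% of aligned positions. The 7 mu-class genes Gstm1 to Gstm7 lie within 0.15 Mb of chromosome 3 and their windows were identical at only 40.0% to 47.7%. Gstm1 (chr3:108017974-108018223, minus strand) and Gstm5 (chr3:107895604-107895853, plus strand) are shown because both hold a core of the xenobiotic response element, GCGTG on either strand. Capitals mark that core and the core of the antioxidant response element, TGACNNNGC on either strand.
Gstm1: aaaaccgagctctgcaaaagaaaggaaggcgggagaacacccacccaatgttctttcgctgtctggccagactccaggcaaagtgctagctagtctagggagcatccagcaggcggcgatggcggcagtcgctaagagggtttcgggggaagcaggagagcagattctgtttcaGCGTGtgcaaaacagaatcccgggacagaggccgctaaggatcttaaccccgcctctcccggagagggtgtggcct
Gstm5: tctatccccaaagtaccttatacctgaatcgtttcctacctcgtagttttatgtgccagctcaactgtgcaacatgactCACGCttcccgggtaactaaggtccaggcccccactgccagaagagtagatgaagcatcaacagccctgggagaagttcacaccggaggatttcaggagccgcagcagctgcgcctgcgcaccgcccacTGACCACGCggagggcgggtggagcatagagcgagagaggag
In Gstm5 the antioxidant core overlaps one of its xenobiotic cores 34 to 42 bases before the start. GCGTG was in 28.2% of all promoters of this length and in the promoters of 7 member genes (Gsta2, Gstm1, Gstm5, Gstp1, Sult1b1, Sult1d1 and Sult2b1), and TGACNNNGC was in 10.2% of all promoters and in those of Gsta3, Gstm5 and Gstm7. A match is a description of letters and not of a bound site.

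A gene was called expressed when its brightest probe was well above background on more than 50% of the arrays of the day. At day 7, 34 of 51 members were expressed, against 61.3% of all named genes, and at day 0, 38 of 53, against 61.5%. The Gst family was expressed almost whole, with 19 of 20 genes at either day, all but the theta-class gene Gstt4. Of the Ugt family 9 of 14 genes were expressed at day 7 and 10 of 14 at day 0, and of the Sult family 6 of 17 and 9 of 19. All 34 genes expressed at day 7 were expressed at day 0 as well. Sult1c1 and Ugt2a1 were expressed at day 0 only, but the designs read each by a different probe, while Sult5a1 was read by the same probe at both days and was well above background on 2 of 8 arrays at day 7 and 7 of 13 at day 0. Neither day showed expression of 14 genes on both designs. These were Gstt4, Sult1e1, the estrogen sulfotransferase, Sult3a1, Sult6b1, Ugt2a3, Ugt2b1, Ugt3a1, Ugt3a2, and the hydroxysteroid sulfotransferases Sult2a1, Sult2a2, Sult2a3, Sult2a4, Sult2a6 and Sult2a7, which are known from liver. Sult2a8, on the day 0 design only, was well above background on 13 of 13 arrays.

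At day 7 no member passed limma's test at an adjusted p under 0.05 among 42 tested, and the lowest adjusted p was 0.913. The background was the same, with 0 of 44643 probes called (0%) and 1511 (3.38%) at an unadjusted p under 0.05. Of the 34 expressed members 20 were lower and 14 higher in arrays labelled GF Card9-/-, and the median log2 difference (GF Card9-/- minus GF WT) was -0.04, against 0.00146 over all 15301 expressed genes. The expressed members at an unadjusted p under 0.05 were Gstm1, Gstm4 and Gstm6, all lower, where 2.5% of expressed genes reached it and 1.16% did so in that direction. Sult5a1, not expressed by the rule, also reached it (1.45 ± 0.57), with an unadjusted p of 0.0379 and a limma adjusted p of 0.913. With a fold of at least 1.5 as well there were 2 expressed members, Gstm4 and Gstm6, where 1.29% of expressed genes passed both.

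The mu class supplied these genes. Mu-class transferases conjugate epoxides and other electrophiles, and Gstm1 is a major form in mouse liver. Gstm1 read 13.26, 13.43, 13.75 and 12.96 in GF Card9-/- replicates 2, 2.1, 4 and 6, and 13.90, 13.92, 13.77 and 13.76 in GF WT replicates 1, 4, 5 and 6. The groups came within 0.01 of each other without overlapping, and Gstm1 was the only expressed member of which this was true, against 1.84% of all expressed genes (0.823% with the label GF Card9-/- lower). By limma the log2 difference was -0.49 ± 0.17 (SE), with an unadjusted p of 0.0250 and a limma adjusted p of 0.913. The array files place this probe at chr5:117082490-117082549 (mm9) although they name it Gstm1, whose promoter lies on chromosome 3. A second Gstm1 probe gave -0.72 ± 0.29. Gstm4 read 9.26, 9.44, 8.71 and 8.80 in arrays labelled GF Card9-/- and 9.55, 9.37, 10.30 and 9.56 in those labelled GF WT. Only GF WT replicate 4 reached into the GF Card9-/- range (difference -0.64 ± 0.26). Gstm6 read 10.10, 9.91, 9.999 and 9.41 against 10.90, 10.24, 10.62 and 10.09, with GF WT replicate 6 just under the brightest GF Card9-/- array (-0.61 ± 0.23). Up to 31 of 60 letters of the Gstm6 probe matched the Gstm1 probe in ungapped alignment.

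The other mu-class genes lay on the same side with overlapping groups. Gstm2 differed by -0.40 ± 0.18, Gstm3 by -0.31 ± 0.29, Gstm5 by -0.12 ± 0.21 and Gstm7 by -0.66 ± 0.43. Thus 7 of 7 mu-class genes were lower in arrays labelled GF Card9-/-, with a median of -0.49, where 49.7% of all expressed genes were lower. Counted by probe, 15 of 15 expressed probes for these genes were lower. The class was singled out after its values had been seen. As a score, the mean over the 7 genes of each array's deviation from the mean of the day, the arrays labelled GF Card9-/- read -0.04, -0.08, -0.30 and -0.50 for replicates 2, 2.1, 4 and 6 and those labelled GF WT read 0.27, 0.06, 0.43 and 0.16 for replicates 1, 4, 5 and 6. GF Card9-/- replicate 6 was lowest and GF WT replicate 5 highest. A pair of slides held an array of each label. On the slide of GF Card9-/- 2 and GF WT 6 the median difference over the class was -0.19 with 5 of 7 genes lower, and on that of GF Card9-/- 2.1 and GF WT 4 it was -0.19 with 4 of 7 lower. Gstm1 kept its size there, at -0.50 and -0.49. GF Card9-/- 4 and 6 and GF WT 1 and 5, which had the outermost scores, shared a slide with no other array of the day. For these arrays slide and label cannot be told apart. Marker lists lay to one side as well: 7 of 7 smooth muscle markers (median -0.48) and 6 of 6 cell cycle genes (-0.69) were lower, while 7 of 7 colonocyte markers (0.37) and 6 of 6 expressed adipocyte markers were higher. So were 6 of 6 lymphoid markers (0.41), among them Cd3g (1.18 ± 0.46), which was well above background on 1 of 4 GF WT arrays. Goblet cell, macrophage and small intestine lists were mixed. Of their expressed genes 1 of 7, 2 of 5 and 3 of 7 were lower, with medians of 0.30, 0.05 and 0.20. Of the 5 neutrophil markers 2 were expressed, Ly6g and S100a9, and their score did not overlap between the labels (0.00039 to 0.79 against -0.82 to -0.01). S100a9, well above background on 1 of 4 GF WT arrays, differed by 1.65 ± 0.33, so its size depends on the background there. S100a8, well above background on 1 array, differed by 1.46 ± 0.28 (limma adjusted p of 0.913 for both). All 7 smooth muscle markers were well above background on every array. The smooth muscle score ran from -1.49 to 0.62 in arrays labelled GF Card9-/- and from -1.09 to 1.23 in the others. The part of these cells in the mu-class values was not tested. Without the arrays with pancreatic genes, GF Card9-/- 2.1 and 6, the mu-class median was -0.34 with 7 of 7 genes lower, and 0 members had an unadjusted p under 0.05 by limma.

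**Figure D1:**
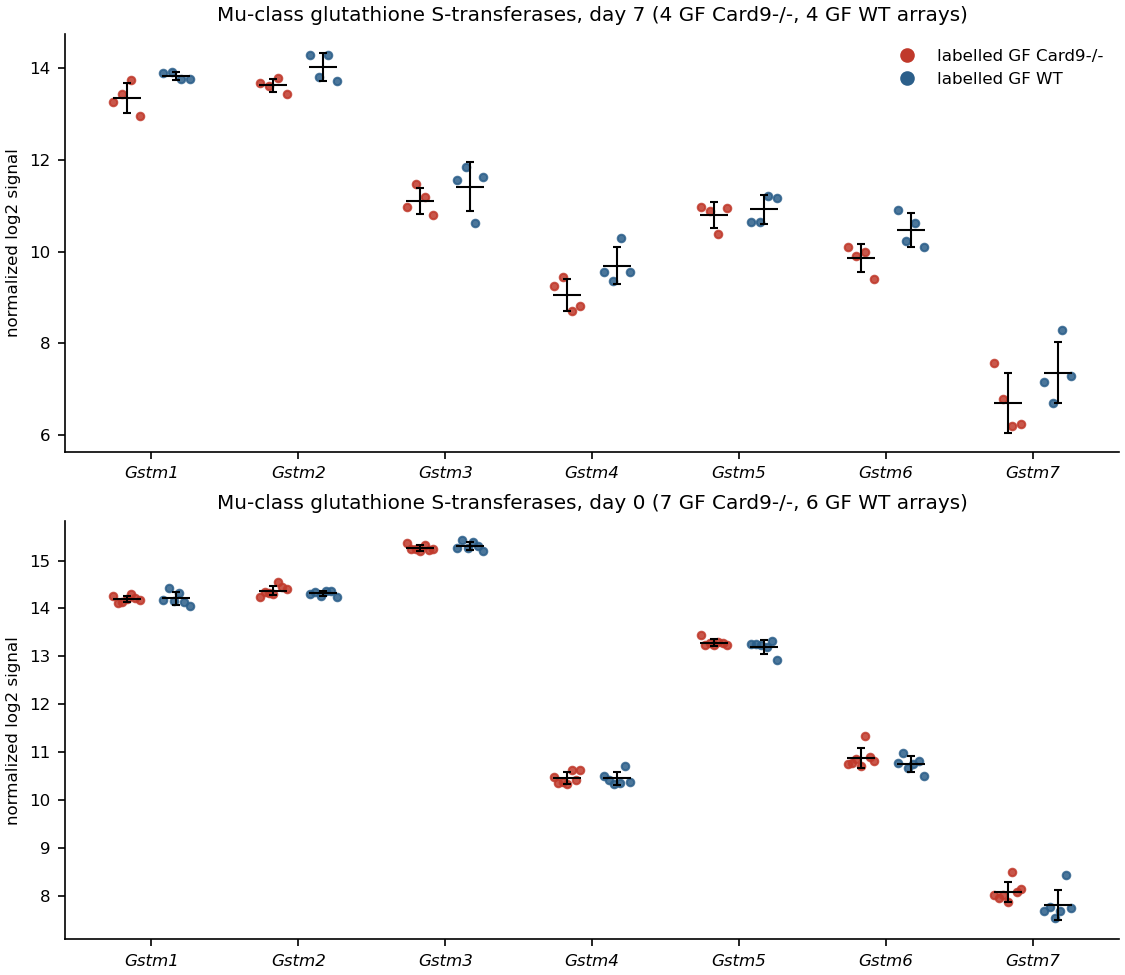
Normalized log2 signal of the brightest probe of each mu-class gene (vertical axis) in every array, at day 7 (top, 4 and 4 arrays) and day 0 (bottom, 7 and 6 arrays). Points are arrays, red for the label GF Card9-/- and blue for GF WT, with black bars for mean and SD. At day 7 the red mean lies under the blue mean in 7 of 7 genes and only Gstm1 shows no overlap. At day 0 the groups overlap in all 7. The designs read Gstm3 and Gstm5 by different probes, so their levels cannot be set side by side between the panels.

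At day 0 the labels did not separate in the mu class. Gstm1 ran from 14.12 to 14.30 (median 14.21) in 7 arrays labelled GF Card9-/- and from 14.04 to 14.42 (median 14.17) in 6 labelled GF WT, a difference of -0.01 ± 0.06 with a 95% interval of -0.15 to 0.13. Gstm4 ran from 10.33 to 10.64 and from 10.34 to 10.71 (0.01 ± 0.08, interval -0.16 to 0.17). Gstm6 ran from 10.71 to 11.34 and from 10.50 to 10.99 (0.13 ± 0.11). Gstm7 showed the largest difference of the class, 0.27 ± 0.14, from ranges of 7.88 to 8.50 and 7.55 to 8.44. Here 2 of 7 mu-class genes were lower, and the median was 0.06. The designs read Gstm3 and Gstm5 by different probes. They shared no Gstm3 probe, so Gstm3 was not in the test between the days given below. The smooth muscle markers were again lower, 7 of 7 with a median of -0.45, and the cell cycle genes were higher, 6 of 6 with a median of 0.39. The difference between the days in the genotype difference was tested in a joint limma fit on the 23633 probes detected at both days. No member passed, of 38 tested, nor did any probe (0%). At an unadjusted p under 0.05 there were 9 members, 8 of them expressed at both days, against 7.14% of probes. Of these Gstm6 gave the lowest p in limma's fit (day 7 minus day 0 difference -0.74 ± 0.23, unadjusted p of 0.00417 and limma adjusted p of 0.465), followed by Gstm1 (-0.48 ± 0.16) and Gstm2 (-0.46 ± 0.15), and Gstm4 and Gstm7 were among them, as were Sult1a1 (-0.32 ± 0.14) and, by the probe that both designs hold, Ugt2b35 (-0.90 ± 0.41). Gstp2 lay on the other side (0.41 ± 0.14).

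The remaining Gst genes did not pass the test at either day, like the mu class. Pi-class transferases are typical of epithelia. Gstp2 read 16.20, 16.22, 16.49 and 16.18 in arrays labelled GF Card9-/- at day 7 and 16.04, 16.24, 15.87 and 16.12 in those labelled GF WT (0.20 ± 0.13), with GF WT replicate 4 inside the other range. At day 0 it ran from 16.28 to 16.48 (median 16.33) against 16.41 to 16.93 (median 16.51), a difference of -0.21 ± 0.08 with an unadjusted p of 0.0211 and a limma adjusted p of 0.737. That was the lowest adjusted p of any member at day 0, when 46 were tested, none was called, and 12 of 47410 probes (0.0253%) were. The signal of GF WT replicate 6 stood above the rest, and without the 3 arrays of its slide the difference was -0.14 ± 0.05. Gstp1, whose day 0 probe is annotated to Gstp2 as well, gave -0.06 ± 0.12 and -0.15 ± 0.13 at day 7 and day 0.

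Alpha-class enzymes reduce lipid peroxides and conjugate their breakdown products. Gsta4, which handles 4-hydroxynonenal, read 8.01, 8.69, 7.05 and 7.35 against 7.07, 8.24, 7.69 and 8.72 at day 7 (-0.16 ± 0.47), the groups covering each other. At day 0 it ran from 9.35 to 9.96 in arrays labelled GF Card9-/- and from 8.75 to 10.96 in the others (-0.08 ± 0.28). Gsta2 and Gsta3 gave 0.02 ± 0.40 and -0.18 ± 0.42 at day 7. The 3 expressed theta-class genes were lower at both days by small amounts, from -0.23 to -0.19 at day 7 and from -0.07 to -0.01 at day 0. Gsto1, of the omega class, which reduces dehydroascorbate and arsenic compounds, differed by 0.04 ± 0.13 at day 7 and by -0.07 ± 0.09 at day 0. Gstk1, the mitochondrial and peroxisomal kappa form, differed by 0.19 ± 0.23 and 0.06 ± 0.21. Gstz1, an enzyme of tyrosine breakdown, differed by 0.16 ± 0.17 and 0.10 ± 0.10.

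The widest spread among the members was in Ugt2b5, Ugt2b36, Ugt2b37 and Ugt2b38, whose promoters are printed above. Enzymes of the Ugt2b subfamily glucuronidate steroids and bile acids. Ugt2b5 read 5.94, 9.02, 7.87 and 6.79 in GF Card9-/- replicates 2, 2.1, 4 and 6 at day 7, and 2.55, 9.11, 3.01 and 8.99 in GF WT replicates 1, 4, 5 and 6. It was thus bright in GF Card9-/- 2.1, GF WT 4 and GF WT 6 and not well above background in GF WT 1 and 5. Ugt2b38 read 6.83, 9.83, 8.68 and 7.55 against 5.92, 9.67, 5.74 and 9.83. The same arrays were at the top and at the bottom. Ugt2b37 read 4.64, 7.79, 6.25 and 5.42 against 3.69, 7.65, 3.37 and 7.85, and Ugt2b36 read 5.06, 7.81, 6.40 and 5.86 against 5.09, 7.47, 2.38 and 7.81. The label differences were small beside this, from 0.39 ± 1.26 for Ugt2b37 to 1.49 ± 1.74 for Ugt2b5, with 95% intervals as wide as -2.58 to 5.56. Between the lowest and the highest array of day 7 the signals of these genes ranged over 4.09 (Ugt2b38) to 6.56 (Ugt2b5) on the log2 scale, and no other expressed member over more than 2.41. The ranges of Ugt2b5, Ugt2b36 and Ugt2b37 start from an array where the probe was not well above background, so their size depends on the background there. Ugt2b38 was well above background in both its lowest and its highest array. Of all expressed genes 1.68% ranged over as much as Ugt2b38.

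At day 0 the same 4 genes again spread together. Ugt2b5 ran from 9.23 to 10.40 (median 9.70) in arrays labelled GF Card9-/- and from 7.41 to 11.96 (median 9.32) in those labelled GF WT, with GF WT replicate 6 at the top and GF WT replicate 2 at the bottom. Ugt2b38 ran from 9.85 to 11.15 and from 8.13 to 12.69, Ugt2b37 from 7.84 to 9.04 and from 6.03 to 10.60, and Ugt2b36 from 7.82 to 9.11 and from 6.40 to 10.58. In each of them the highest and the lowest array were these same 2, and the WT-labelled arrays covered the whole GF Card9-/- range. Differences were 0.29 to 0.39 with standard errors of 0.56 to 0.58. Without the 3 arrays of the slide of GF WT 6 the difference of Ugt2b5 was 1.01 ± 0.48. Across arrays the genes were correlated with each other at r = 0.883 to 0.998 over the 8 arrays of day 7 and at 0.987 to 0.997 over the 13 of day 0, as a description of genes measured on the same arrays. Up to 46 of 60 letters were alike between the probes of Ugt2b5 and Ugt2b37, and the Ugt2b36 probe is annotated to Ugt2b37 as well, so these signals may share transcripts. The other Ugt2b genes ranged less. Ugt2b34 ran from 13.79 in GF WT 5 to 14.59 in GF WT 6 at day 7, the arrays with the lowest and the highest score of the 4 genes, and from 14.80 to 15.30 at day 0. Ugt2b35 was also high in GF WT 4 and 6 (8.60 and 8.52) and low in GF WT 5 (7.18) at day 7, but it was high in GF WT 1 too (8.37), where the 4 genes were low, and lowest in GF Card9-/- 6 (6.91). It differed by -0.59 ± 0.40 at day 7 and, by another probe, by 0.10 ± 0.17 at day 0.

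**Figure D2:**
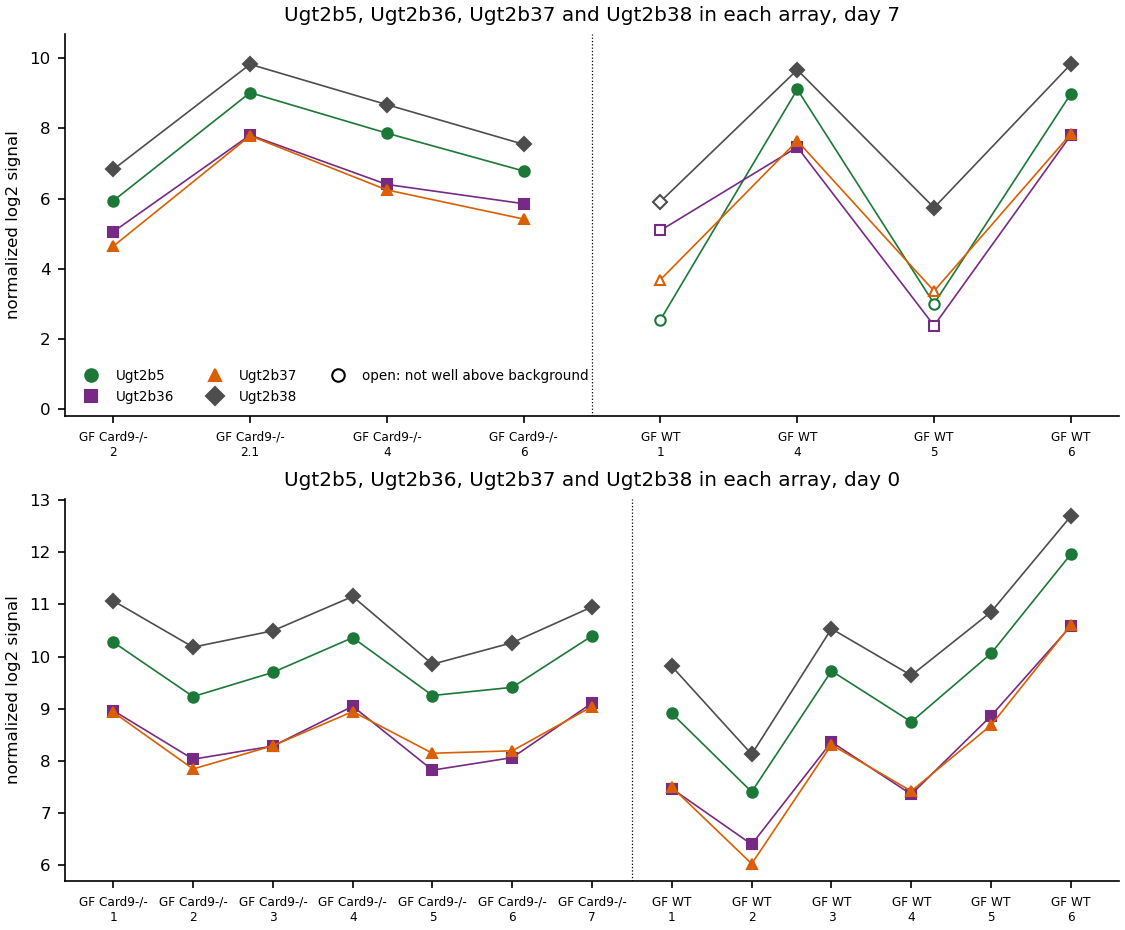
Normalized log2 signal (vertical axis) of Ugt2b5, Ugt2b36, Ugt2b37 and Ugt2b38 in each array (horizontal axis, label and replicate), at day 7 (top) and day 0 (bottom). Open symbols were not well above background, lines only join the points of a gene within a label, and the dotted line parts the labels. All 4 genes are high in GF Card9-/- 2.1, GF WT 4 and GF WT 6 at day 7, and highest in GF WT 6 and lowest in GF WT 2 at day 0.

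Several marker and pathway lists were high and low in some of the same arrays. The score of the small intestine markers was highest in GF Card9-/- 2.1 (1.11) and lowest in GF WT 5 (-1.66) at day 7, where the score of the 4 Ugt2b genes was 1.99 and -3.00. Other arrays of day 7 did not follow this. The marker score was 0.45 in GF WT 6, 0.12 in GF WT 4 and 0.40 in GF Card9-/- 6. The Ugt2b score there was 2.00, 1.85 and -0.22. Of the expressed small intestine markers 3 of 7 were lower in arrays labelled GF Card9-/-. Smooth muscle lay the other way, at -1.49 in GF Card9-/- 2.1 and 1.23 in GF WT 5. At day 0 it was 2.18 in GF WT 6 and -0.73 to 0.54 in the other arrays, where the score of the Ugt2b genes was 2.28 and -2.19 to 0.70. Of the 10 markers, 5 to 8 were well above background on each array at day 7, where Apoa4 was on none, and 7 to 10 on each array at day 0. The same pair of arrays, GF Card9-/- 2.1 and GF WT 5, held the highest and the lowest mean log2 signal at day 7 of the colonocyte markers (15.04 and 13.50), the adipocyte markers (11.74 and 8.26) and the phase I oxidation genes (9.59 and 8.66). At day 0 the phase I oxidation score was 1.21 in GF WT 6 and at most 0.25 in the others. GF WT 6 was not highest at day 0 for the colonocyte score (0.14, others up to 0.44) or the adipocyte score (1.84, others up to 2.51). The part of any of these in the Ugt2b values was not tested. GF WT 6 held the highest value of 18 of the 38 expressed members at day 0. Over all expressed members its score was 0.48, against -0.34 to 0.17 in the other arrays. At day 7 the score of all members ran from -0.26 to 0.34 in arrays labelled GF Card9-/- and from -0.43 to 0.37 in those labelled GF WT, and the labels covered each other at both days.

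**Figure D3:**
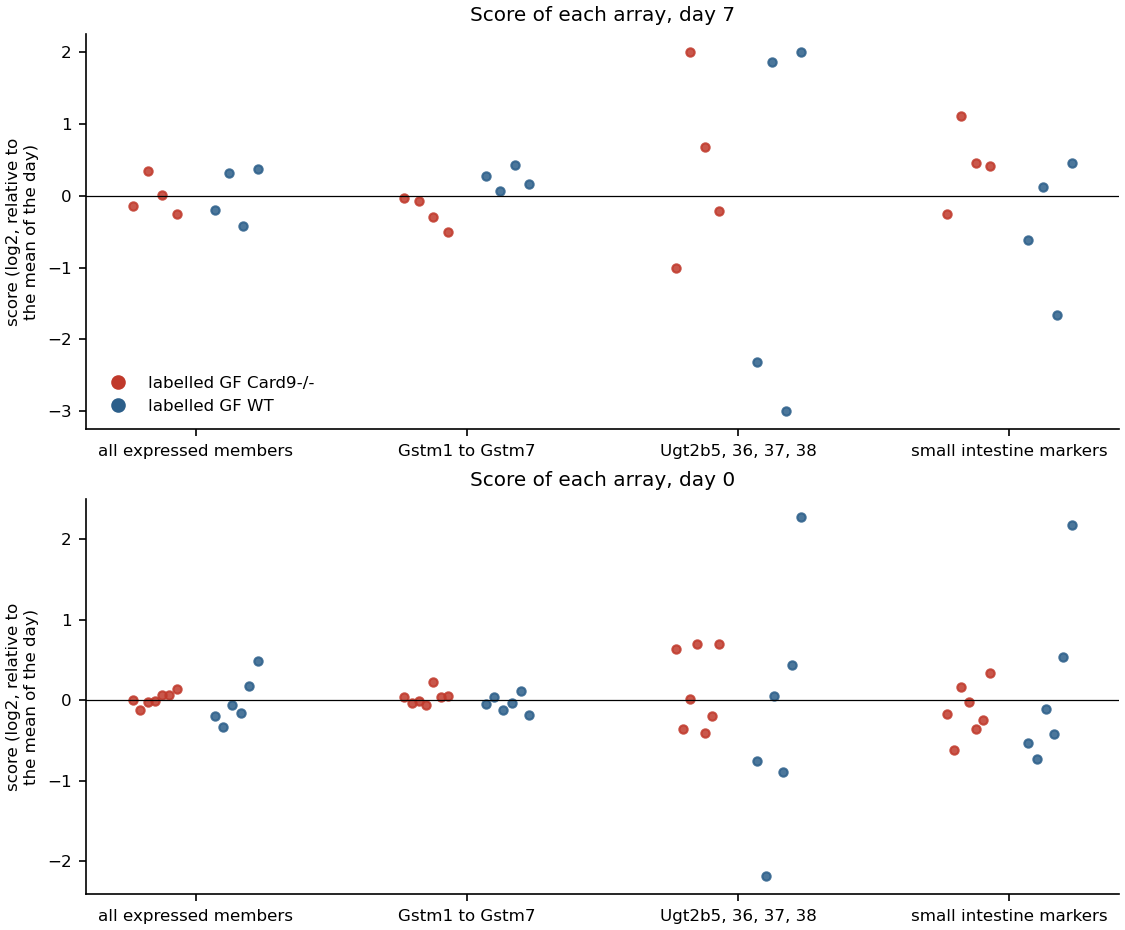
Score of each array (vertical axis, mean log2 deviation from the mean of the day) for all expressed members, for Gstm1 to Gstm7, for the 4 Ugt2b genes and for the small intestine markers, at day 7 (top) and day 0 (bottom). Points are arrays, red for the label GF Card9-/- and blue for GF WT. The labels lie apart only for Gstm1 to Gstm7 at day 7, and at day 0 one GF WT array, replicate 6, is highest for all members, for the Ugt2b genes and for the small intestine markers.

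Ugt1a genes share their last exons and differ in the first, and their enzymes glucuronidate bilirubin and phenols. Ugt1a1 and Ugt1a7c had no probe under their own name. The Ugt1a6b probe, annotated to Ugt1a6a, Ugt1a6b, Ugt1a7c and Ugt1a10, read 15.17, 15.41, 15.51 and 15.13 in arrays labelled GF Card9-/- at day 7 and 14.94, 15.43, 14.38 and 15.23 in the others. GF WT replicate 5 was lowest, and the difference was 0.31 ± 0.24. At day 0 it ran from 15.63 to 15.96 and from 15.67 to 16.90 (-0.24 ± 0.18), GF WT replicate 6 standing highest, and without the 3 arrays of its slide the difference was -0.03 ± 0.09. The Ugt1a6a probe, annotated to Ugt1a1, Ugt1a6a, Ugt1a7c and Ugt1a10, ran from 7.25 to 7.76 (median 7.53) against 7.45 to 7.89 (median 7.79) at day 0. Its difference of -0.25 ± 0.10 had an unadjusted p of 0.0242 and a limma adjusted p of 0.750, and at day 7 it differed by -0.01 ± 0.21. With Gstp2 it was one of 2 expressed members at an unadjusted p under 0.05 at day 0, both lower, where 7.53% of expressed genes (5.84% of probes) reached it and 2.18% did so in that direction. With a fold of at least 1.5 there was none, against 0.632% of expressed genes, and no expressed member's groups lay apart, against 0.768% of expressed genes (0.218% with the label GF Card9-/- lower). Ugt3a2, not expressed by the rule, reached it as well (0.75 ± 0.33). The median over the 38 expressed members was 0.03, against 0.0147 over all expressed genes, and 18 were lower and 20 higher, where 45.7% of expressed genes were lower.

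Sulfotransferases of the Sult1 family act on phenols, catecholamines and thyroid hormones. Sult1a1, the phenol sulfotransferase, read 14.85, 14.78, 14.72 and 14.65 against 15.10, 14.91, 14.70 and 15.15 at day 7 (-0.22 ± 0.13), with GF WT replicate 5 inside the GF Card9-/- range. At day 0 it ran from 15.64 to 15.74 and from 15.30 to 15.82 (0.11 ± 0.08). Sult1b1, which acts on thyroid hormone, read 14.39, 14.32, 14.48 and 14.44 against 14.35, 14.21, 13.68 and 14.19 at day 7, with GF WT replicate 1 inside the GF Card9-/- range (0.30 ± 0.16). At day 0 it differed by -0.02 ± 0.09. Sult1c2 differed by -0.03 ± 0.24 and 0.08 ± 0.10, Sult1d1 by -0.06 ± 0.14 and 0.08 ± 0.18, and Sult2b1, the cholesterol sulfotransferase of epithelia, by 0.04 ± 0.26 and 0.11 ± 0.14 at day 7 and day 0. Sult4a1, known from neurons, was expressed at both days and differed by -0.09 ± 0.55 and -0.22 ± 0.25. None of these differences was larger than the spread between arrays by the adjusted test.

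**Figure D4:**
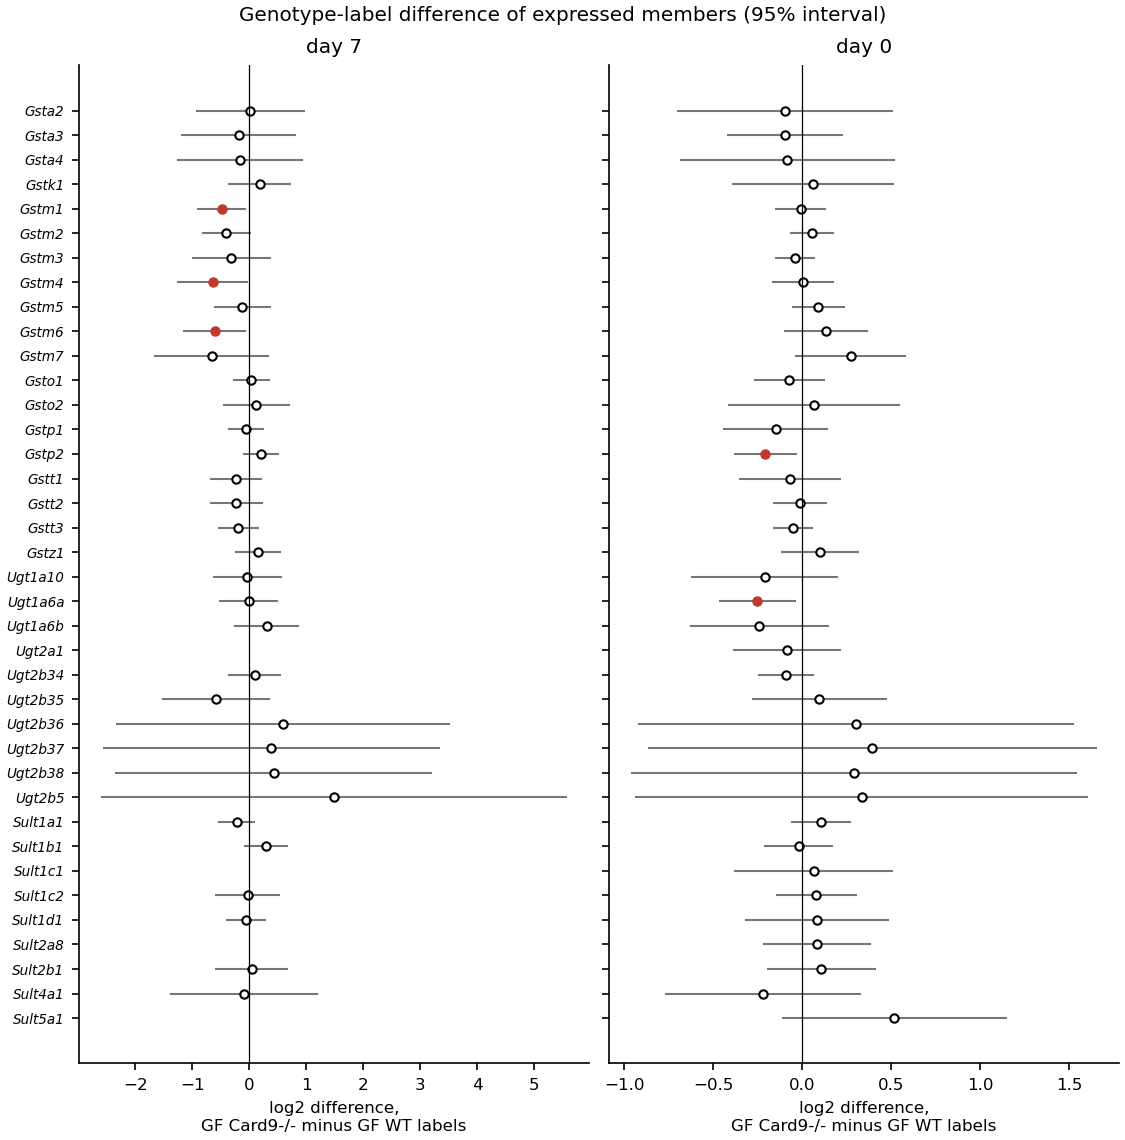
Log2 difference, GF Card9-/- minus GF WT labels (horizontal axis, a separate scale per day), of each expressed member at day 7 (left) and day 0 (right), with its 95% interval from the limma fit. Red points had an unadjusted p under 0.05 (Gstm1, Gstm4 and Gstm6 at day 7, Gstp2 and Ugt1a6a at day 0). No point passed after adjustment, and the intervals are widest for Ugt2b5, Ugt2b36, Ugt2b37 and Ugt2b38.

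The rest of the conjugation pathway was read from 7 lists of 77 genes, of which 0 passed limma's adjusted test at either day. The median differences of the lists ran from -0.00169 to 0.32 at day 7 and from -0.16 to 0.04 at day 0. At day 7 the list of phase I oxidation enzymes had the highest median (7 of 9 expressed genes higher) and the list of other glutathione enzymes the lowest. Expressed genes at an unadjusted p under 0.05 at day 7 were 3 of 70, where 2.5% of all expressed genes reached it. Mgst1, the microsomal glutathione S-transferase, was lower (-0.56 ± 0.19), as was the epoxide hydrolase Ephx1 (-0.57 ± 0.21), while the gamma-glutamyltransferase Ggt1 was higher (2.63 ± 0.72) with 1 of 4 GF WT arrays well above background. At day 0 they were 2 of 73, where 7.53% of all expressed genes reached it, the carbonyl reductase Cbr3 (-0.42 ± 0.10) and the nuclear receptor Rxra (-0.37 ± 0.08). The list of NRF2, Keap1 and NRF2 targets had 3 of 10 genes lower at day 7, Ephx1 among them, with a median of 0.13. The part of NRF2 in the mu-class values was not tested. At day 0 the efflux transporters, which carry conjugates out of the cell, were lower in 8 of 8 genes with a median of -0.16.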

How the data were processed

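RNA of total colon was hybridized by the authors to 21 single-color Agilent arrays (13 at day 0, 8 at day 7, on different designs), with 1 sample per array. The deposited files hold, per spot, the intensity after background subtraction, the raw mean and background intensity, a p-value against background and flags, made with Agilent Feature Extraction 10.7.3.1 per the submitters' processing notes. Precision depends on how many arrays a group has. The authors also deposited log2 values, quantile normalized with agilp according to the study's methods. Their column medians were 6.21 at day 7 and 6.63 to 6.64 at day 0. Over probes each column correlated with its own array at 0.976 or more and, after centering probes, with its own array far above any other (0.818 or more against 0.438 or less), so scale, centring and direction were settled as uncentred log2 levels. Which intensity column they came from was not given in the sources used here.

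Here log2 of the processed intensity was quantile normalized over the arrays of a day. Control and outlier spots were removed, and repeat spots gave 1 mean. Tests took probes with detection p-values under 0.05 in 60% or more of either genotype's arrays. These were 44643 out of 55681 probes for day 7 and 47410 out of 56605 for day 0. The thresholds are the study's own, but the p-value was used without regard to direction. Up to 7.68% of spots on an array (GF WT replicate 4 at day 7) passed while dimmer than background. Genotype labels were compared within a day by limma 3.58.1 (R 4.3.3) with Benjamini-Hochberg adjustment over all tested probes. Intervals use limma's moderated degrees of freedom. The fit was tested on simulated data. Alternatives were other normalizations, background corrections and filters, the deposited log2 values, slide and scan session as blocks, a replicate block, and leaving out arrays. Named were the 6 expressed members with the largest difference in each direction per day, any whose groups did not overlap, and representatives of each class. Other members were described by subfamily after their values were seen. Members and lists were chosen with earlier results of these data known. Probe names are those of the files. Promoters are from RefSeq (GRCm38.p6), while probe positions are on mm9.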

Additional observations from a re-analysis of the deposited data

Results flagged for a closer look

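In groups of 4 to 10 arrays a single array was flagged where its gap to the next one took up most of the range of the group. Of 146 groups of values examined, 10 were flagged, and chance flags about 1 in 20. At day 7 these were Sult1d1 in GF Card9-/- replicate 2 (12.59 on the log2 scale, next 12.25), Gsto1 in GF WT replicate 1 (16.67, next 16.29) and Ugt2b35 in GF WT replicate 5 (7.18, the lowest, next 8.37). At day 0 GF WT replicate 6 was high for Gstp2 (16.93, next 16.52), Ugt1a6b (16.90, next 16.06) and the Ugt1a score (0.74, next 0.16). In the same day GF Card9-/- replicate 5 was high for Sult1c2 (13.59, next 13.34) and the score of Gstm1 to Gstm7 (0.23, next 0.05), GF Card9-/- replicate 6 for Gstz1 (12.46, next 12.11) and GF WT replicate 5 for Gstm7 (8.44, next 7.76).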

How the results depend on the processing

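No member was called at an adjusted p under 0.05 in any of 18 other settings at day 7, 23 at day 0 and 25 for the difference between days, where the lowest adjusted p of a member was 0.690, 0.261 and 0.190. Unadjusted p under 0.05 with a fold of at least 1.5 gave 2 members at day 7 and 0 at day 0. The median over expressed members stayed within the spread between arrays, from -0.27 to 0.08 at day 7 and from -0.12 to 0.16 at day 0. Leaving out 1 array at a time gave -0.18 to 0.01 and -0.02 to 0.06, and for the mu class -0.51 to -0.36 and 0.03 to 0.07. With single slides the mu-class median was -0.19 on both slides at day 7, and -0.11 and 0.26 on slides of GF WT 2 and GF WT 6 at day 0, settings added after the data were seen like the mu-class median itself. Gstm1 at day 7 ran from -0.62 to -0.33 over 18 settings, with an unadjusted p under 0.05 in 12.

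The replicate numbers were shared by 2 pairs at day 7 and 6 at day 0, and same-numbered arrays deviated together at r over 0.1 in 1 and 3 of these. Arrays correlated best with their own number in 2 of 2 cases for each label at day 7 and in 2 of 6 at day 0. The labels tie no number to an animal or batch, and the arrays were treated as unpaired. With a replicate block 0 members were called at either day, and the medians were -0.27 and 0.01. At day 7 the block, on 4 arrays, turned Gstt1 (0.0753), Ugt1a6b (-0.00942), Ugt2b34 (-0.15), Ugt2b36 (-1.51), Ugt2b37 (-1.92), Ugt2b38 (-1.64) and Ugt2b5 (-1.72). At day 0, without the 3 arrays of the slide of GF WT 6, Gsta4 (0.20) and Sult4a1 (0.14) turned. The block also took Gsta4 to -1.29 and Ugt2b35 to -1.41, and 9 expressed members to an unadjusted p under 0.05 against 3 without it (limma adjusted p of 0.795 at the lowest). Without GF WT replicate 5, Ugt2b35 was -0.92 at day 7 and Gstm7 0.40 at day 0, both at an unadjusted p under 0.05. Of 1007 values of named members 998 kept their sign or changed it by less than 1 SE, whatever their size. The causes were not tested. Dim genes are limited by signal over background, as for Ugt2b5, Ugt2b36 and Ugt2b37 in GF WT 1 and 5 and Ugt2b38 in GF WT 1 at day 7.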
